A study of Rattus norvegicus with 18 samples.

Results

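The perineuronal net genes *Acan*, *Bcan*, *Ncan*, *Vcan*, *Hapln1*, *Hapln4*, *Tnr* and *Ptprz1* were examined in the prefrontal cortex (PFC) of rat pups at postnatal day 14 (P14). They were chosen by gene symbol for their place in the net, and are 8 of the 32623 genes listed for each pup. RNA-seq was done on 18 Sprague Dawley pups in 3 groups of 6, and every dam was dosed by oral gavage. Pups of the saline group (SAL) had dams given saline. Pups of the postnatal oxycodone group (PNO) had dams given the opioid oxycodone (oxy) at 15 mg/kg/day from birth to weaning, so that exposure came with the breastmilk. Pups of the in utero group (IUO) had dams started at 10 mg/kg/day for 5 days and raised by 0.5 mg/kg/day over 10 days to 15 mg/kg/day. These females were then mated and stayed on the drug through gestation and nursing, so that IUO pups met oxy before and after birth. Pup sex and litter were not given for single samples, and p-values measure the spread between these pups, some of which may share a dam.

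A perineuronal net is a lattice of extracellular matrix that condenses around the soma and proximal dendrites of certain neurons, above all parvalbumin interneurons, as cortical circuits mature and their plasticity falls. Chondroitin sulphate proteoglycans of the lectican family, which are aggrecan (*Acan*), brevican (*Bcan*), neurocan (*Ncan*) and versican (*Vcan*), bind hyaluronan at one end. Link proteins (*Hapln1*, *Hapln4*) lock that bond, and tenascin-R (*Tnr*) crosslinks the lecticans at their other end. *Ptprz1* encodes a receptor-type phosphatase whose secreted form, phosphacan, is a proteoglycan that also binds tenascin-R. Aggrecan and *Hapln1* mark the mature net, while neurocan and versican are prominent in the younger, looser matrix.

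Summed expected counts lay between 18381819 and 26084780 per pup, with a median of 22726306, and all 8 genes passed the filter on low counts with which 15703 genes were tested. SAL replicate 6 stood apart from the other pups in the relative level of long and short transcripts. This was measured with a score set after the data were seen, the median log2 deviation of 809 genes with transcripts of at least 6000 bases less that of 7003 genes under 2000 bases. It was 0.56 in SAL replicate 6, followed by 0.30 in PNO replicate 1 and 0.27 in IUO replicate 5, and lowest at -0.40 in PNO replicate 2. The tissue was whole PFC, so that a lower level from fewer cells of a type and one from less RNA per cell cannot be told apart. Markers of the cells that carry nets or make their parts were present. *Pvalb* was detected in every pup, and 10 of 10 genes of a parvalbumin interneuron list, 10 of 10 of an astrocyte list and 9 of 10 of an oligodendrocyte precursor list were tested. The striatal list, which PFC tissue should hold little of, ranged from 180 to 1936 CPM (counts corrected for library size) in sum over the 18 pups. Its median was 301 CPM in SAL, 313 in PNO and 685 in IUO, and all 10 of its genes had a higher mean in IUO than in either other group, 0 of them at an unadjusted p under 0.05 in edgeR's quasi-likelihood test. By the same test 3 of 10 astrocyte genes (*S100b* -0.57, *Gfap* -0.36, *Aqp4* -0.29) and 2 of 9 precursor genes (*Olig1* -0.41, *Olig2* -0.39) were lower in IUO than in PNO at that level (9.14% of all genes) and 0 higher (6.14%), on the log2 scale. The 4 red blood cell genes tested were all at higher values in IUO, 3 at that level against SAL (3.02% of all genes) and 2 against PNO (6.14%; median log2 fold change 1.14 and 1.15), with a summed median of 2133 CPM against 1140 in SAL and 1374 in PNO. Of 10 choroid plexus genes 9 had a lower value in IUO than in PNO, 1 at that level (9.14% of all genes; median -0.83). None of these passed after adjustment. Precursor and striatal scores were fitted as covariates, and the part of the astrocyte, red blood cell and choroid plexus genes in the results was not tested.

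On a scale corrected for transcript length (TPM, transcripts scaled to a common total), *Bcan* was the most abundant of the genes. Its median was 185 TPM over the 18 pups, with a range from 142 to 259. *Ncan* followed at a median of 70.4 TPM and *Ptprz1* at 66.6 TPM, and *Ncan* exceeded *Ptprz1* in only 9 of 18 pups, so that their order was not resolved. *Hapln1* stood at 31.9 TPM, below *Ptprz1* and above *Vcan* (18.3 TPM) in all 18 pups. *Tnr* had a median of 11.1 TPM and lay under *Vcan* in 16 of 18 pups, but over *Hapln4* (6.69 TPM) in only 12 of 18. *Acan* was lowest at 1.28 TPM and lay under *Hapln4* in 17 of 18 pups. The lecticans therefore spanned both ends of the order at P14, with brevican at the top and aggrecan, the core of the mature net, at the bottom.

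The genes also differed in how far pups of one group lay apart. The within-group SD of log2 CPM was 0.83 for *Tnr* and 0.76 for *Hapln4*, larger than that of 94.9% and 93.5% of all genes tested. It was 0.21 for *Bcan* and 0.23 for *Hapln1*, under the median of 0.25 over all genes. The other members fell between, with 0.44 for *Acan*, 0.41 for *Ncan*, 0.35 for *Ptprz1* and 0.27 for *Vcan*. A given difference between groups was thus easier to detect for *Bcan* and *Hapln1* than for *Tnr* and *Hapln4*.

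Promoter sequence, as 300 bases running from 250 before to 50 after the annotated start, was found in the RefSeq table of build GRCr8 for 7 of the 8 genes, with *Ptprz1* as the exception. The sequences of *Ncan*, *Tnr* and *Hapln4* are printed because the first of these varied with the second and inversely with the third across pups, as described further on. *Ncan* and *Hapln4* are neighbours on chromosome 16 with 0 coding genes between them, and the windows are chr16:19335657-19335956 on the plus strand for *Ncan*, chr16:19375124-19375423 on the minus strand for *Hapln4* and chr13:74624776-74625075 on the plus strand for *Tnr*. Each runs 5′ to 3′, with CG dinucleotides in capitals.
Ncan: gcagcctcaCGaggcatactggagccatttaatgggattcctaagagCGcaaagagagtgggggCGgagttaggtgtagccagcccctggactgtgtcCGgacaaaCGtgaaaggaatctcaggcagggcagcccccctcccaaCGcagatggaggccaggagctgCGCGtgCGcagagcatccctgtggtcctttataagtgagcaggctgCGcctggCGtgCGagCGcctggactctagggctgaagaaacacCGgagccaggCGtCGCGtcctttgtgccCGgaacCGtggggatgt
Hapln4: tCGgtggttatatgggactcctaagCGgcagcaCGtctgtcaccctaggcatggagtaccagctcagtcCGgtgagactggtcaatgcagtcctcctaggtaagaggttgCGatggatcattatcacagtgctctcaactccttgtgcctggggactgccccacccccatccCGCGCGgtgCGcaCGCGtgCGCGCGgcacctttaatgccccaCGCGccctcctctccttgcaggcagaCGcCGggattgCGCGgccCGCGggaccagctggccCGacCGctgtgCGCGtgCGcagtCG
Tnr: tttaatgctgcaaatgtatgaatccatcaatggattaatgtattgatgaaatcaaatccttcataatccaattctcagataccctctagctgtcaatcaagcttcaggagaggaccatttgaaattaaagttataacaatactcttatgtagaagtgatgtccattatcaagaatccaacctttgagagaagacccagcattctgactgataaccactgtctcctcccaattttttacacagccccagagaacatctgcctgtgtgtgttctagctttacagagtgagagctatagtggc

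The *Tnr* window held 0 CG dinucleotides, which 5.47% of the 33469 promoters of the table share. The *Ncan* window held 19 and the *Hapln4* window 28, against a median of 7 over all promoters. *Acan* had 28, *Bcan* 22, *Vcan* 12 and *Hapln1* 10. Searched on both strands, the GC box GGGCGG was present once in *Ncan*, *Bcan* and *Vcan* and 3 times in *Acan*, and is held by 33.1% of all promoters. TATAAA was present once in *Ncan* and in none of the other 6 windows (14.2% of all promoters), and the SOX core ACAAAG once in *Ncan* and *Hapln1* (18.8%). *Tnr* and *Hapln4* held none of the 3 motifs, and the motifs were counted one by one. The windows of *Ncan* and *Tnr* therefore had none of these motifs in common.

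No member passed the adjusted threshold in any comparison of groups. With edgeR's quasi-likelihood test and Benjamini-Hochberg adjustment over all genes, 0 of 8 had an adjusted p under 0.05 for PNO over SAL (0.0% of all genes), 0 for IUO over SAL (0.0%) and 0 for IUO over PNO (0.0637%, or 0.0446% with at least 1.5-fold). At an unadjusted p under 0.05 the numbers were 0 of 8 (4.5% of all genes), 1 of 8 (6.88%) and 3 of 8 (15.3%). The single gene was *Hapln4*, which *Ncan* and *Vcan* joined when IUO was set against PNO. In that last comparison DESeq2 called 1 member (*Hapln4*) and limma-voom called 2 (*Hapln4* and *Ncan*), and neither called any member against SAL. Over all genes these tools called 2.78% and 12.9% there, against the 0.0637% of edgeR. The median log2 fold change of the 8 genes was -0.12 for PNO over SAL, 0.05 for IUO over SAL and 0.12 for IUO over PNO, against 0.0033, -0.0073 and -0.0005 over all genes. Both comparisons with SAL use the same 6 SAL pups.

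**Figure D1:**
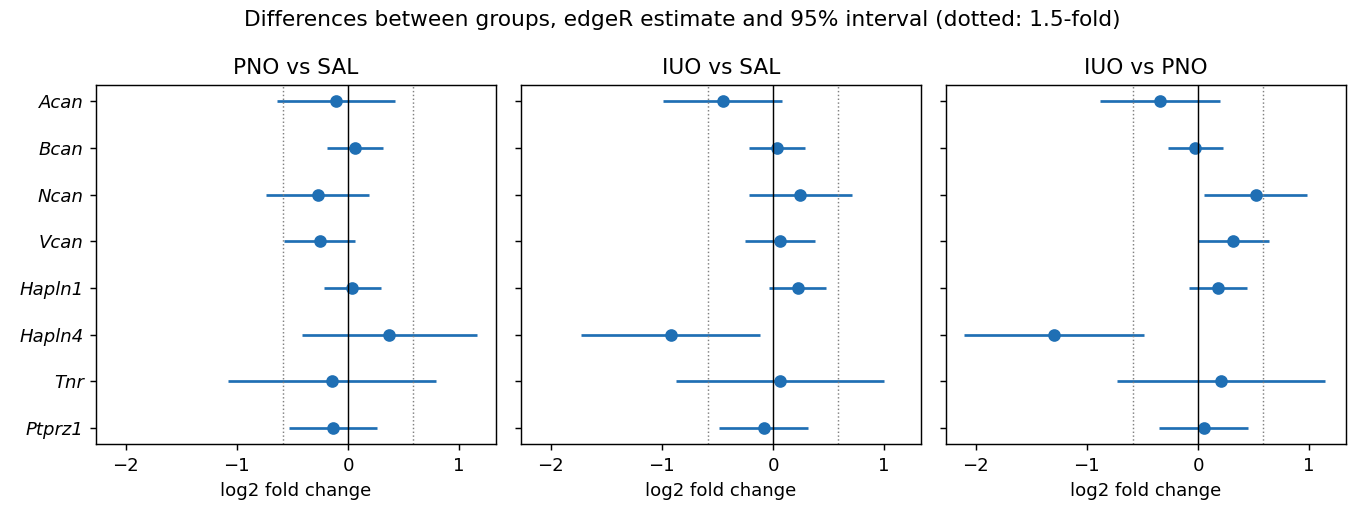
Log2 fold change of each gene (points, edgeR estimate) with its 95% interval (lines) for PNO over SAL, IUO over SAL and IUO over PNO, with dotted lines at 1.5-fold. The interval of Hapln4 lies wholly below 0 in the right-hand and middle panels, and those of Bcan and Hapln1 stay inside the dotted lines in every panel.

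Among the lecticans, aggrecan transcript was low in every pup. *Acan* ranged from 4.50 to 13.9 CPM in SAL (median 5.08), from 4.50 to 7.69 in PNO (6.73) and from 3.35 to 5.68 in IUO (5.05). The SAL maximum came from SAL replicate 6, the pup with the highest long-transcript score, and the groups overlapped. The difference between IUO and SAL was -0.45 on the log2 scale (SE 0.25, adjusted p = 0.811 in edgeR's quasi-likelihood test), and without SAL replicate 6 it was -0.11. Between PNO and SAL it was -0.11 (SE 0.25), and 0.23 without that pup. IUO lay below PNO by 0.34 (log2 fold change -0.34, SE 0.26), and the value went from -0.76 when a score of myelin genes was added to the edgeR model (adjusted p = 0.453) to -0.07 with one of striatal genes. *Acan* was lower where the striatal list was higher, at r = -0.66 over the 18 pups (permutation p = 0.00131, adjusted 0.0175 over 120 relations; rho = -0.66, p = 0.00422, adjusted 0.0633; -0.56 without the 2 pups farthest from the median). The part of striatal tissue in its values was not tested beyond that fit.

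Brevican, which mature astrocytes and oligodendrocyte precursors make in large amounts, was the steadiest member. *Bcan* lay between 298 and 462 CPM in SAL (median 369), 319 and 486 in PNO (374), and 336 and 425 in IUO (404). The IUO range lay inside those of SAL and PNO. The log2 fold change was 0.06 for PNO over SAL (95% interval -0.19 to 0.31), 0.04 for IUO over SAL (-0.21 to 0.29) and -0.02 for IUO over PNO (-0.27 to 0.23). A difference of 1.5-fold lies outside all 3 intervals.

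Neurocan, a lectican of the developing brain made by neurons and astrocytes, had the largest difference of the lecticans. *Ncan* ranged from 113 to 292 CPM in SAL (median 182), from 100 to 248 in PNO (145) and from 174 to 323 in IUO (211). All 6 IUO pups lay above the PNO median, although PNO replicates 1 and 5 reached into the IUO range. The log2 fold change of IUO over PNO was 0.52 (SE 0.22, 95% interval 0.06 to 0.98, adjusted p = 0.279 in edgeR's quasi-likelihood test), and it passed with limma-voom, which gives each pup a quality weight (0.72, adjusted p = 0.0141). With the myelin marker score as a covariate it was 0.22, and with the long-transcript score 0.30. Against SAL the values were -0.27 (SE 0.22) for PNO and 0.25 (SE 0.22) for IUO. Single pups moved both, the former from -0.45 without PNO replicate 1 to -0.11 without SAL replicate 6, and the latter from 0.11 without IUO replicate 5 to 0.40 without SAL replicate 6.

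Versican, the large lectican of early matrix, showed a smaller difference of the same sign. *Vcan* lay between 46.4 and 81.8 CPM in SAL (median 55.6), 36.6 and 67.1 in PNO (46.0), and 50.5 and 68.9 in IUO (63.0). The highest values in SAL and PNO were those of SAL replicate 6 and PNO replicate 1, and the groups overlapped. The log2 fold change of IUO over PNO was 0.32 (SE 0.15, adjusted p = 0.324 in edgeR's quasi-likelihood test), with all 6 IUO pups above the PNO median. It was -0.26 (SE 0.15) for PNO over SAL and 0.06 (SE 0.15) for IUO over SAL. Without SAL replicate 6 these were -0.14 and 0.18, and the former was -0.37 without PNO replicate 1.

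**Figure D2:**
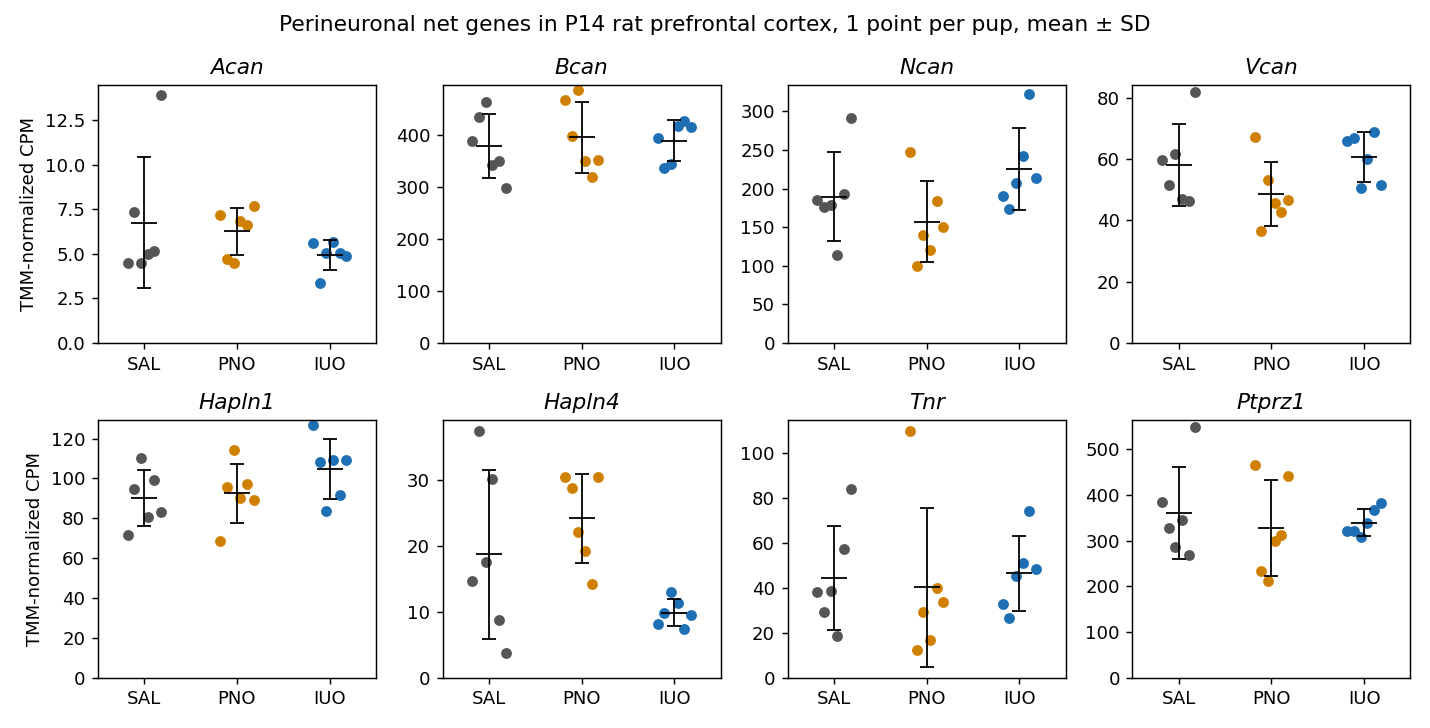
TMM-normalized CPM of the 8 genes in each of 18 pups (1 point per pup, 6 per group), with the mean and SD of each group as a bar and whiskers. Hapln4 is the only panel in which no IUO pup reaches the PNO range (highest IUO 13.0, lowest PNO 14.3), and the high points of Acan in SAL (13.9) and of Tnr in PNO (109) are single pups.

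The link protein genes parted. *Hapln1*, which encodes cartilage link protein, was near constant, with 71.7 to 110 CPM in SAL (median 88.9), 68.8 to 114 in PNO (92.9) and 83.7 to 127 in IUO (109). The IUO pups tended to the upper end, and all groups overlapped. Its log2 fold change was 0.22 for IUO over SAL (95% interval -0.04 to 0.48, adjusted p = 0.809 in edgeR's quasi-likelihood test), 0.18 for IUO over PNO (-0.08 to 0.44) and 0.04 for PNO over SAL (-0.22 to 0.30).

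*Hapln4*, the brain link protein that partners brevican at inhibitory synapses and in nets, was the member with the largest difference. Its CPM ranged from 3.75 to 37.5 in SAL (median 16.1), from 14.3 to 30.5 in PNO (25.4) and from 7.41 to 13.0 in IUO (9.65). The 6 IUO pups all lay below the 6 PNO pups, a separation in the lower direction seen in 0.86% of all genes, whereas SAL pups spread across both groups. *Hapln4* was 2.45-fold lower in IUO than in PNO (log2 fold change -1.29, SE 0.38, 95% interval -2.10 to -0.49, unadjusted p = 0.00346, adjusted p = 0.137 in edgeR's quasi-likelihood test). The call depended on the test, with an adjusted p of 0.0298 in DESeq2, 0.0392 in limma-voom and 0.0229 in edgeR's fit of only the 12 pups compared. The log2 fold change was -0.92 for IUO over SAL (SE 0.38, unadjusted p = 0.0271, adjusted p = 0.673 in edgeR's quasi-likelihood test) and 0.37 for PNO over SAL (SE 0.38). The SAL pups set these sizes, the former being -0.60 without SAL replicate 2 and -1.14 without SAL replicate 6, and the latter 0.70 and 0.15.

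The ratio of the link proteins within a pup needs no library scaling. The log2 ratio of *Hapln4* to *Hapln1* expected counts was -3.42 ± 0.42 (SD, n = 6) in IUO, -1.97 ± 0.59 in PNO and -2.61 ± 1.22 in SAL. It lay between -3.95 and -2.69 in IUO and between -2.76 and -1.17 in PNO, so that only IUO replicate 3 and PNO replicate 5 crossed. IUO was lower than PNO by 1.45 (difference -1.45, two-sided exact permutation test, p = 0.00433, adjusted p = 0.0390 over 9 ratio tests), with 6 of 6 IUO pups below the PNO mean. The adjusted p stayed under 0.05 when PNO replicate 3, PNO replicate 5 or IUO replicate 3 was left out. It rose to between 0.0649 and 0.0779 without any 1 of the other 9 PNO and IUO pups. In these 12 fits the exact p was 0.00433, the smallest that 5 against 6 pups allow, or 0.00866, the next step. The fits thus differed by no more than 1 step of the test, and the difference stayed between -1.61 and -1.29. Set against SAL, the ratio did not pass for IUO (-0.81, exact p = 0.147) or for PNO (0.64, exact p = 0.292).

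Neither lectican ratio passed. The log2 ratio of *Acan* to *Vcan*, the mature against the early lectican, was -3.63 ± 0.38 (SD, n = 6) in IUO, -2.96 ± 0.37 in PNO and -3.21 ± 0.49 in SAL. The difference between IUO and PNO was -0.67 (two-sided exact permutation test, p = 0.0152, adjusted p = 0.0682 over 9 ratio tests), and without PNO replicate 3 the adjusted p was 0.0390. The log2 ratio of *Bcan* to *Ncan* was 0.81 ± 0.24 in IUO, 1.37 ± 0.48 in PNO and 1.03 ± 0.55 in SAL. Its difference between IUO and PNO was -0.56 (exact p = 0.0325, adjusted p = 0.0974).

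Levels of *Hapln4* moved with markers of other cells. Over the 18 pups its log2 CPM correlated with the mean log2 CPM of 10 myelin genes at r = 0.81 (permutation p = 7e-05, adjusted 0.0016 over 120 relations; rho = 0.81, p = 9e-05), and at 0.74 without the 2 pups farthest from the median. Within groups r was 0.94 in SAL, 0.69 in PNO and -0.11 in IUO. The summed CPM of the myelin list was 1744 to 9391 in SAL (median 6398), 2958 to 15085 in PNO (10431) and 2225 to 5686 in IUO (3031), and all 10 myelin genes were lower in IUO than in PNO, 10 at an unadjusted p under 0.05 (9.14% of all genes) and 0 after adjustment. With the myelin score as a covariate, the log2 fold change of *Hapln4* between IUO and PNO was -0.29 (adjusted p = 0.919 in edgeR's quasi-likelihood test), and between IUO and SAL -0.21. The part of myelin in the result was not tested beyond this fit. Against the long-transcript score *Hapln4* had r = -0.59 (permutation p = 0.00937, adjusted 0.0864 over 120 relations; rho = -0.45, p = 0.0602; -0.30 without the 2 farthest pups), with -0.86 in SAL, -0.06 in PNO and -0.10 in IUO. With that score in the edgeR model its log2 fold change between IUO and PNO was -1.11 (adjusted p = 0.141).

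*Pvalb*, which encodes the calcium-binding protein of the interneurons that nets enclose, was looked at after its values were seen. It ranged from 3.42 to 24.6 CPM in SAL (median 10.8), from 10.4 to 33.5 in PNO (21.5) and from 2.60 to 5.93 in IUO (4.71). The IUO pups all lay below the PNO pups, a separation in that direction seen in 0.86% of all genes. The log2 fold change of IUO over PNO was -2.34 (SE 0.41, adjusted p = 0.0356 in edgeR's quasi-likelihood test), so that *Pvalb* was called where no net gene was. With pups left out 1 at a time the value stayed between -2.49 and -2.19, but the call was kept only without PNO replicate 5 (adjusted p 0.0328 to 0.102). Of 14 other settings 13 kept it, and the myelin score as a covariate did not (-1.32, adjusted p = 0.323). Of the other 9 genes of the parvalbumin interneuron list none was called by edgeR, and with *Pvalb* 5 of 10 were lower at an unadjusted p under 0.05 (9.14% of all genes) and 0 higher (6.14%). The potassium channel genes *Kcnc1* (log2 fold change -0.61, adjusted p = 0.110) and *Kcnc2* (-0.47, adjusted p = 0.0991) did not overlap between IUO and PNO (0.86% of all genes in the lower direction). *Syt2*, a synaptotagmin gene (-1.27), and *Cox6a2*, a respiratory chain subunit (-1.26), overlapped. The GABA-synthesis genes *Gad1* and *Gad2*, the most abundant of these, were at -0.14 and 0.23. In all 6 of the 10 had values below 0 and 4 above, the others above being *Lhx6* (0.58), *Erbb4* (0.53) and *Tac1* (0.39), each with an unadjusted p over 0.05 in that test.

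The parvalbumin interneuron list, which holds *Pvalb*, correlated with *Hapln4* across pups at r = 0.56 (permutation p = 0.0132) and rho = 0.62 (p = 0.0065). Neither passed after adjustment over 120 relations (0.0991 and 0.078), and r was 0.54 in SAL, 0.35 in PNO and 0.40 in IUO. The correlation of *Hapln4* with *Pvalb* alone was higher in value than that with any marker list, a difference that was not tested. It was r = 0.88 (permutation p = 2e-05, adjusted 0.0008 over 120 relations; rho = 0.88, p = 1e-05), and 0.86 without the 2 pups farthest from the median. Unlike the relation with myelin, it was positive within every group, at 0.90 in SAL, 0.67 in PNO and 0.78 in IUO. *Acan* and *Hapln1* did not share it, with r of 0.0014 and -0.18, and *Ncan* ran against it at -0.73 (permutation p = 0.00039; rho = -0.69, p = 0.0019; -0.61 without those 2 pups).

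**Figure D3:**
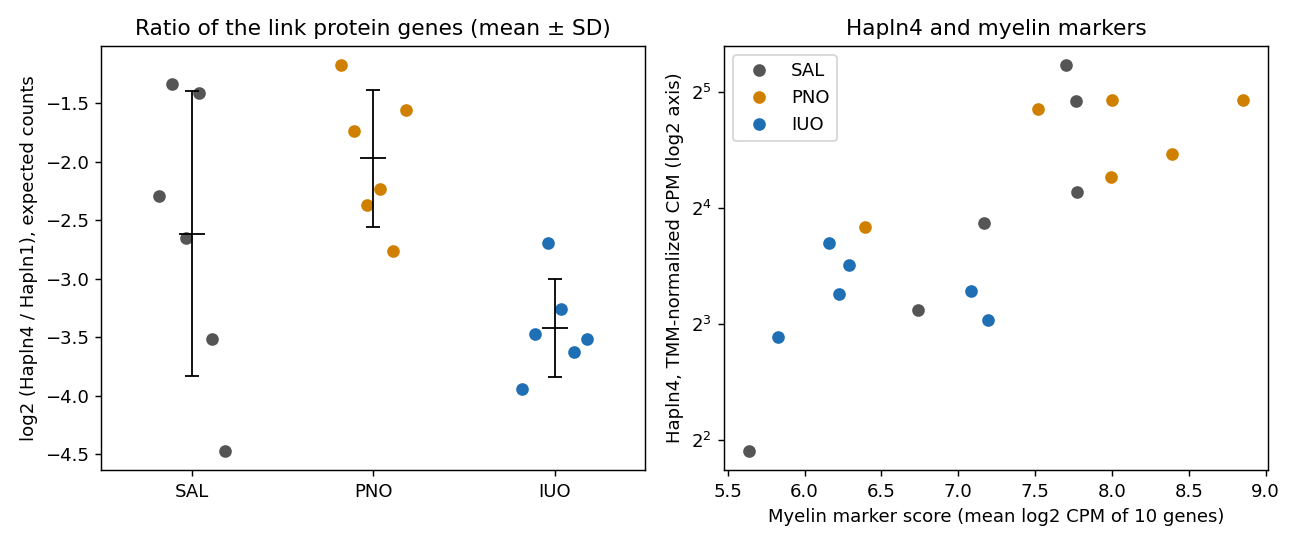
Left, log2 ratio of Hapln4 to Hapln1 expected counts in each pup with group mean and SD, which is -3.42 in IUO and -1.97 in PNO. Right, Hapln4 CPM (log2 axis) against the mean log2 CPM of 10 myelin genes, 1 point per pup, where the 18 pups give r = 0.81 and the 6 IUO points alone show no upward slope.

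Tenascin-R, the crosslinker, varied most. *Tnr* ranged from 18.7 to 83.9 CPM in SAL (median 38.4), from 12.1 to 109 in PNO (31.3) and from 26.7 to 74.2 in IUO (46.7). Single pups set the extremes, SAL replicate 6 in SAL and PNO replicate 1 in PNO, and the IUO range lay inside that of PNO. The log2 fold change was -0.14 for PNO over SAL (SE 0.45), 0.06 for IUO over SAL (SE 0.45) and 0.21 for IUO over PNO (SE 0.45, 95% interval -0.73 to 1.14). Without PNO replicate 1 the value for PNO over SAL was -0.76 and that for IUO over PNO 0.82 (adjusted p = 0.216 in edgeR's quasi-likelihood test). Other pups moved them the other way, the former to 0.14 without SAL replicate 6 and the latter to as little as 0.015 with 1 pup left out. With the myelin marker score as a covariate the latter was -0.13. The interval for IUO over PNO is wide enough to hold a change of 1.5-fold in either direction.

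*Ptprz1*, the phosphatase and phosphacan gene, lay between 270 and 548 CPM in SAL (median 336), 212 and 466 in PNO (306), and 308 and 383 in IUO (330). IUO pups were closely grouped, with a CV of 8.67% against 28.0% in SAL and 32.2% in PNO, and sat inside both other ranges. Its log2 fold change was -0.14 for PNO over SAL (SE 0.19), -0.09 for IUO over SAL (SE 0.19) and 0.05 for IUO over PNO (SE 0.19). The deposited tables list 1 transcript for this gene, and the receptor and phosphacan forms were not separated.

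Across pups the members did not vary as a block. The median Pearson r of log2 CPM over the 28 pairs was 0.08, and 8 pairs had an adjusted permutation p under 0.05 by Pearson's r. *Ncan* and *Tnr* were closest at r = 0.92 (p = 1e-05, the smallest these permutations can give; rho = 0.94, p = 1e-05), with 0.90 after the 2 farthest pups were left out. The relation was as strong within SAL (0.95), PNO (0.99) and IUO (0.95). It was the only pair that also passed by Spearman's rho after adjustment. *Ncan* and *Vcan* followed at 0.75 (p = 0.00042; rho = 0.62, p = 0.0074; 0.63 without the 2 pups) and *Vcan* and *Tnr* at 0.65 (p = 0.0035; rho = 0.49, p = 0.0422; 0.43 without them), but in IUO alone these were 0.19 and -0.12.

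The lowest values involved the link proteins. *Ncan* and *Hapln4*, the neighbours on chromosome 16, had r = -0.65 (permutation p = 0.00339; rho = -0.61, p = 0.0085; -0.58 without the 2 farthest pups), mainly from SAL (-0.83) and not from PNO (-0.0038). *Vcan* and *Hapln4* had -0.57 (p = 0.0132; rho = -0.39, p = 0.109; -0.33 without them). *Hapln1* and *Ptprz1* had -0.53 (p = 0.0245) and a rho of -0.56 (p = 0.0172), with an r of -0.48 without the 2 farthest pups. This pair did not pass after adjustment over the 28 pairs (permutation p adjusted to 0.0685 for r and 0.12 for rho). Each lectican gene has a link protein gene as its neighbour with 0 coding genes between, and the other 3 such pairs gave r of -0.45 for *Acan* and *Hapln3*, 0.19 for *Bcan* and *Hapln2* and -0.03 for *Vcan* and *Hapln1*. None of the 4 pairs of neighbours had r above 0.19.

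**Figure D4:**
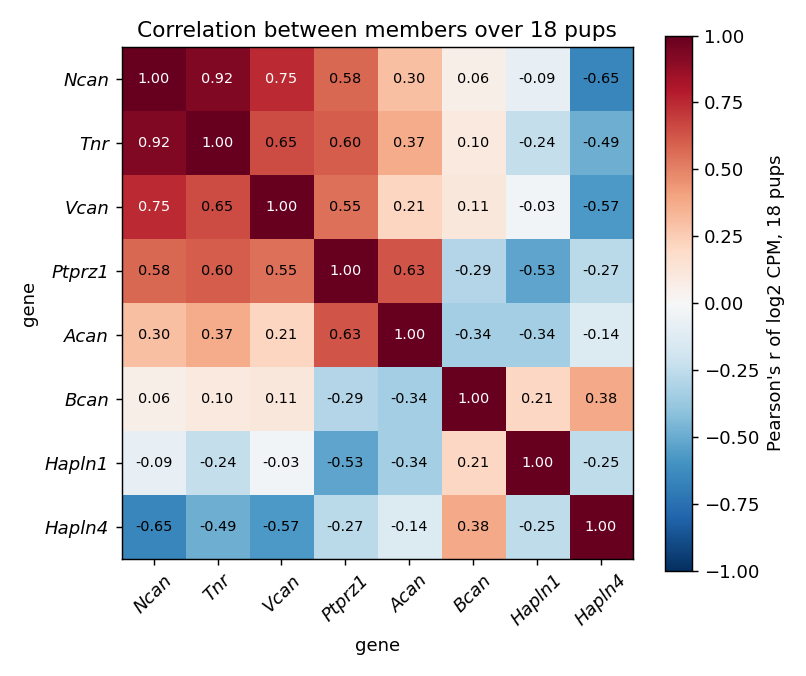
Pearson's r of log2 CPM over 18 pups for each pair of the 8 genes, from -1 (blue) to 1 (red). Ncan, Tnr, Vcan and Ptprz1 form a red block with 0.92 for Ncan and Tnr, and Hapln4 is blue against Ncan (-0.65).

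The shared movement of *Ncan* and *Tnr* went with measures of the libraries. The long-transcript score, which leaves the members out, correlated with *Ncan* at r = 0.89 (permutation p = 1e-05, the smallest possible, adjusted 0.0006 over 120 relations; rho = 0.86, p = 1e-05; 0.86 without the 2 farthest pups). For *Tnr* it was 0.87 (p = 3e-05; rho = 0.85, p = 4e-05; 0.84 without them), and within the 3 groups both genes stayed between 0.78 and 0.95. The share of counts on mitochondrial genes, 6.96% to 16.3% over the pups, ran the other way, at r = -0.87 for *Ncan* (p = 1e-05; rho = -0.81, p = 0.00012; -0.82 without them) and -0.80 for *Tnr* (p = 8e-05; rho = -0.81, p = 0.00011; -0.78 without them). The part of these library measures in the pattern was not tested. *Ptprz1* also followed the long-transcript score, at r = 0.74 (p = 0.00055, adjusted 0.00825; rho = 0.53, p = 0.0248; 0.53 without them), as did *Vcan* at 0.68 (p = 0.00193, adjusted 0.0232; rho = 0.49, p = 0.04; 0.39 without them), and neither passed by rho after adjustment. *Acan* did not pass, at r = 0.56 (permutation p = 0.0195, adjusted 0.13) and 0.16 without the 2 farthest pups, and nor did *Hapln1* at -0.36 (p = 0.142, adjusted 0.433). The median transcript length is 4368 bases for *Ncan*, 4650 for *Vcan*, 5040 for *Hapln1*, 5685 for *Tnr*, 6608 for *Acan* and 7854 for *Ptprz1*. Their r with the score thus did not follow the order of their lengths.

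The mean transcript length that the authors deposited for each gene and pup moves when the mixture of its transcripts does. It was fixed for *Bcan*, *Hapln4* and *Ptprz1*. For *Tnr* it went from 4241 to 6318 bases over the 18 pups and was longer where the gene's own log2 CPM was higher, at r = 0.92, and for *Vcan* it went from 4173 to 5412 bases and followed the long-transcript score at r = 0.94. The length of *Hapln1* ran against that score at r = -0.73, and that of *Acan* gave -0.22. These are descriptions over 18 libraries whose read coverage the points share. *Tnr* and *Vcan* have 4 listed transcripts each and *Acan* and *Hapln1* 2 each, which cannot be given separate levels from the gene tables.

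**Figure D5:**
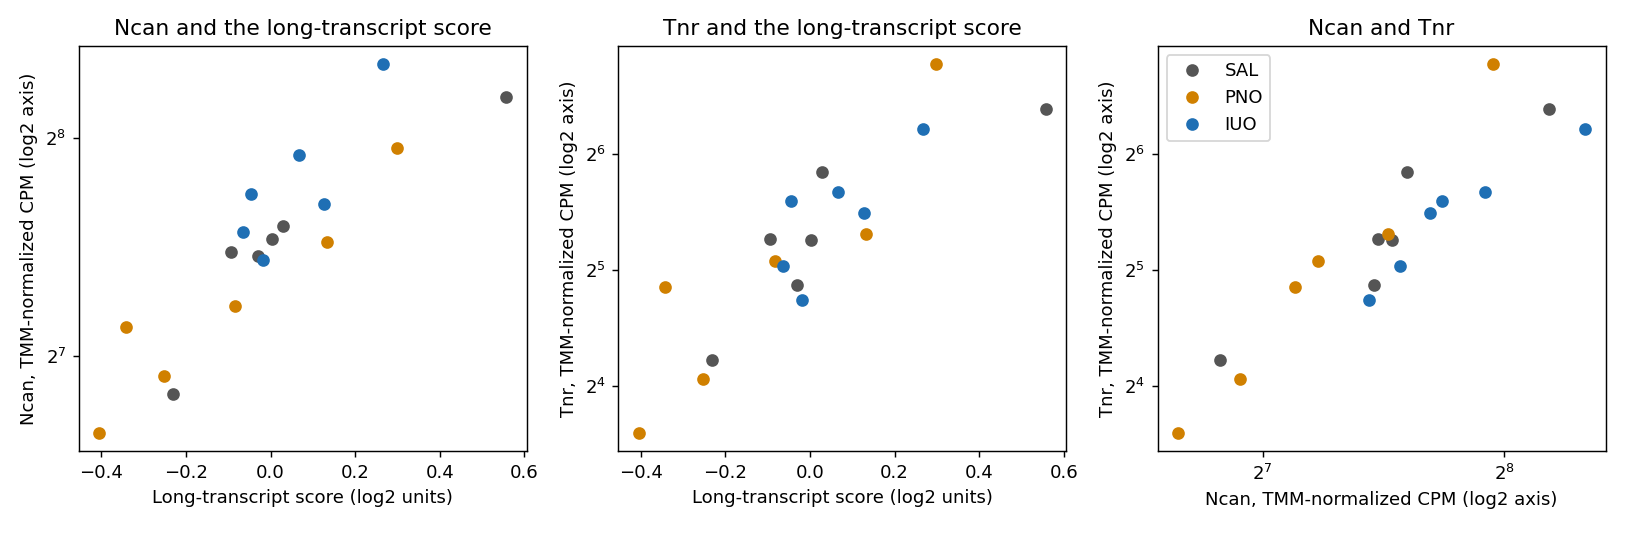
CPM (log2 axes) of Ncan (left) and Tnr (middle) against the long-transcript score, and of Tnr against Ncan (right), 1 point per pup coloured by group. All 3 panels slope upward in each group, with r of 0.89, 0.87 and 0.92 over the 18 pups.

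For each member the genes most alike were found by Pearson's r of log2 CPM over the 18 pups with group means removed, as a description. They were *Rasa3* (0.89) and *Igfbp5* (0.88) for *Acan*, *RT1-A2* (0.91) and *Cyp2d4* (0.86) for *Bcan*, *Adipor2* and *E2f3* (both 0.98) for *Ncan*, and *Wwp1* (0.90) and *Inppl1* (0.89) for *Vcan*. *Hapln1* was closest to *Dhrs3* (0.86) and *Etv5* (0.84), and *Hapln4* to *LOC108348081* (0.89) and *Lgi3* (0.87). *Tnr* was closest to *E2f3* and *Ppp1r16b* (both 0.97), and *Ptprz1* to *Gpr161* (0.96) and *Kcnn3* (0.94). *E2f3* thus stood beside both *Ncan* and *Tnr*. The mean transcript length was 1445 bases for *Adipor2*, 1651 for *E2f3* and 2570 for *Ppp1r16b*. *Adipor2* and *E2f3* thus belong to the set under 2000 bases of the long-transcript score, although *Ncan* and *Tnr* rose with that score.

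Around the 8 genes, the other parts of the net were followed in 3 lists. Of 23 regulators, receptors and assembly partners, all tested, 0 passed the adjusted threshold in any comparison. At an unadjusted p under 0.05, 1 was lower and 0 higher for PNO over SAL (2.60% and 1.89% of all genes), 1 lower and 0 higher for IUO over SAL (3.87% and 3.02%), and 5 higher and 3 lower for IUO over PNO (6.14% and 9.14%). *Tnc*, which encodes tenascin-C, the relative of tenascin-R found in young matrix, was at 48.8 ± 9.04 CPM in PNO, 71.9 ± 19.9 in SAL and 73.7 ± 12 in IUO (SD, n = 6 each). Every PNO pup was below every IUO pup, a separation in that direction seen in 0.796% of all genes. Its log2 fold change was -0.56 for PNO over SAL (SE 0.16, adjusted p = 0.912) and 0.60 for IUO over PNO (SE 0.16, adjusted p = 0.122 in edgeR's quasi-likelihood test), the latter called by DESeq2 and limma-voom.

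*Hapln2*, the link protein of the matrix at nodes of Ranvier in myelinated axons, was at 1.69 ± 0.65 CPM in IUO, 11.3 ± 8.93 in PNO and 6.42 ± 7.62 in SAL (SD, n = 6 each). Its log2 fold change was -2.75 for IUO over PNO (SE 0.77, adjusted p = 0.126 in edgeR's quasi-likelihood test) and -1.93 for IUO over SAL (SE 0.76, adjusted p = 0.632), the latter -1.07 without SAL replicate 4. DESeq2 (adjusted p = 0.0187) and limma-voom (adjusted p = 0.0254) called the former. The groups overlapped, and with the myelin score as a covariate the former was -0.21 and the latter -0.23. *Hapln2* and *Hapln4* thus both had their lowest mean in IUO, with *Hapln1* at its highest.

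Of 20 enzymes that build and sulphate chondroitin chains, 19 were tested (*Chst13* was too low) and 0 passed. For IUO over PNO, 2 lay higher and 0 lower at an unadjusted p under 0.05 (6.14% and 9.14% of all genes), and none differed at that level in the other comparisons. *Chst7*, a chondroitin sulfotransferase, was at 9.22 ± 1.64 CPM in IUO, 6.88 ± 1.25 in PNO and 7.67 ± 1.52 in SAL, with a log2 fold change of 0.42 for IUO over PNO (SE 0.16, adjusted p = 0.225 in edgeR's quasi-likelihood test) and 0.27 for IUO over SAL (SE 0.16). *Chst15*, which adds a further sulphate to already sulphated chains, was the lowest in p between PNO and SAL, at -0.50 (SE 0.30), and between -0.68 and -0.30 with 1 pup left out.

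Of 14 proteases that cut lecticans and their inhibitors, 13 were tested (*Mmp3* was too low) and 0 passed. For IUO over PNO, 0 lay higher (6.14% of all genes) and 2 lower (9.14%) at an unadjusted p under 0.05. The aggrecanase *Adamts4*, also made by oligodendrocytes, was at 25.0 ± 7.54 CPM in IUO, 50.3 ± 33.1 in PNO and 33 ± 11.9 in SAL. Its log2 fold change was -1.01 for IUO over PNO (SE 0.36, adjusted p = 0.204 in edgeR's quasi-likelihood test) and 0.61 for PNO over SAL (SE 0.36), and with the myelin score as a covariate these were 0.36 and -0.13. With 1 pup left out the former lay between -1.19 and -0.64 and the latter between 0.24 and 0.78. The related *Adamts5* was the lowest in p between IUO and SAL, at -0.72 (SE 0.36), and -0.23 without SAL replicate 6. The medians of the 3 lists lay between -0.10 and 0.05 in all comparisons.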

How the data were processed

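RNA from the PFC of 18 pups was sequenced. The authors deposited 1 table per pup, and its expected count column holds, for 32623 genes, an estimate that divides reads with more than 1 possible source. The deposited TPM column is corrected for length and brought to a common total, and the deposited FPKM column, corrected for length and library size, was not used. The mean transcript length in bases that the authors deposited was used as given. The aligner, quantification program and genome build are not given in the sources used here. Group and replicate number come from the sample titles. Counts were rounded for edgeR 4.0.16, run in R 4.3.3 (TMM scaling, its filter on low counts, 1 quasi-likelihood model over 3 groups with 15 residual degrees of freedom, Benjamini-Hochberg adjustment over 15703 genes). CPM in the text is the expected count scaled by library size with TMM factors, and log2 CPM uses a prior count of 2. Ratios were compared by exact permutation, and correlations by 100000 permutations (Python 3.11.15, numpy 2.4.6, scipy 1.17.1, pandas 2.3.3), and plots were made with matplotlib 3.10.9. Totals of 18381819 to 26084780 per pup set the counting precision, and no pair of pups held identical values.

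The members, the gene lists and the tests were chosen with earlier results of these data known. Genes named are the 8 members, the net-list gene with the smallest p in each comparison and any past an adjusted p of 0.05, the 2 genes most like each member, and the 3 highest and 3 lowest pairs. *Pvalb* and the long-transcript score were added after the data were seen. Alternatives were DESeq2 1.42.0, limma-voom and limma on log2(TPM + 1) (limma 3.58.1), other scalings and filters (none, or a CPM of at least 1 in at least 6 pups), marker scores as covariates, a replicate block, only the 12 pups compared, and leaving pups out. The fit was tested on simulated data. Same-numbered pups come from different dams, and their deviations were correlated over 0.1 in 4 of 6 pairs between PNO and SAL, 1 of 6 between IUO and SAL and 3 of 6 between IUO and PNO.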

Additional observations from a re-analysis of the deposited data

Results flagged for a closer look

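*Acan* in IUO replicate 2 was far from the other IUO pups on the low side, at 3.35 CPM with the nearest pup at 4.86. The gap on the log2 scale was 0.706 of the range of that group, above Dixon's limit for 6 samples. On that scale it was the only 1 of 33 groups of values past that limit, which chance passes in about 1 of 20. On the CPM scale 3 of 24 passed, *Acan* in IUO replicate 2 (0.651), *Acan* in SAL replicate 6 (0.697, at 13.9 CPM) and *Tnr* in PNO replicate 1 (0.716, at 109 CPM). Without IUO replicate 2 the log2 fold change of *Acan* was -0.37 for IUO over SAL. No cause was tested.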

How the results depend on the processing

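No alternative gave a call for any member against SAL, and calls between IUO and PNO came from 3 settings. Members called were 1 with DESeq2 (*Hapln4*, -1.30), 2 with limma-voom (*Hapln4*, -1.13, and *Ncan*, 0.72) and 1 with only the 12 pups compared (*Hapln4*, -1.29; 0.469% of all genes called), against 0 as reported. Leaving out each pup in turn gave 0 calls of members, with *Hapln4* between -1.42 and -1.22 for IUO over PNO (adjusted p 0.0899 to 0.272 in edgeR's quasi-likelihood test). With the replicate block it was -1.30 (adjusted p 0.131), and the block called no member. The log2 ratio of *Hapln4* to *Hapln1* for IUO over PNO was -1.45 with the replicate block (exact sign-flip test over 6 pairs, p = 0.03125, adjusted 0.188, the smallest p that 6 pairs allow), and lay between -1.61 and -1.29 with 1 pup left out. *Acan* to *Vcan* lay between -0.79 and -0.53. The mean correlation of same-numbered pups was 0.232 for PNO and SAL, -0.03 for IUO and SAL and 0.06 for IUO and PNO, and a pup matched its own number best in 2, 0 and 2 of 6 pairs.

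Genes called between IUO and PNO at 1.5-fold were 7 as reported, 13 with library totals only, 172 with DESeq2, 703 with limma-voom, 2, 50, 17 and 32 with the myelin, striatal, precursor and long-transcript scores, 87 without SAL replicate 6 and PNO replicate 1, 50 with only the 12 pups, and 0 to 58 with 1 pup left out. Between IUO and SAL they were 0 as reported, 22 with DESeq2, 17 with limma-voom, 4 with the long-transcript score and 0 to 1 with 1 pup left out, and between PNO and SAL 1 with DESeq2 against 0.

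Of 336 values of the members under 14 settings, 35 had the opposite sign, none larger than 0.22. For PNO over SAL these were *Acan* 0.14 (limma-voom), 0.18 (myelin score), 0.18 (long-transcript score) and 0.19 (both pups left out), *Bcan* -0.11 (limma-voom), -0.025 (TPM), -0.060 (myelin score), -0.059 (precursor score) and -0.059 (both pups left out), *Hapln1* -0.0099 (library totals), -0.049 (TPM) and -0.039 (long-transcript score), *Tnr* 0.10 (myelin score) and 0.12 (long-transcript score), and *Ptprz1* 0.012 (long-transcript score). For IUO over SAL they were *Bcan* -0.040 (limma-voom), -0.050 (striatal score), -0.013 (precursor score) and -0.029 (both pups left out), *Ptprz1* 0.054 (limma-voom) and 0.069 (both pups left out), *Tnr* -0.026 (myelin score) and -0.17 (precursor score), and *Vcan* -0.0071 (striatal score). For IUO over PNO they were *Bcan* 0.016 (library totals), 0.072 (limma-voom), 0.075 (TPM), 0.22 (myelin score), 0.046 (precursor score), 0.013 (long-transcript score) and 0.030 (both pups left out), *Tnr* -0.13 (myelin score) and -0.036 (long-transcript score), and *Ptprz1* -0.081 (myelin score) and -0.085 (long-transcript score). *Adamts4* with the myelin score was -0.13 for PNO over SAL and 0.36 for IUO over PNO. With 1 pup left out, the values lay for PNO over SAL between -0.21 and 0.23 (*Acan*), -0.0082 and 0.12 (*Bcan*), -0.029 and 0.11 (*Hapln1*), -0.27 and 0.018 (*Ptprz1*) and -0.76 and 0.14 (*Tnr*), for IUO over SAL between -0.030 and 0.10 (*Bcan*), -0.16 and 0.068 (*Ptprz1*) and -0.13 and 0.34 (*Tnr*), and for IUO over PNO between -0.087 and 0.045 (*Bcan*) and -0.046 and 0.17 (*Ptprz1*).

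When counts more than 1 SD from their group mean were left out gene by gene, as in a table of the study, the log2 ratio of mean counts of *Tnr* went from -0.13 to -0.77 for PNO over SAL and from 0.23 to 0.96 for IUO over PNO. The same step turned *Acan* from -0.20 to 0.31 for PNO over SAL and from -0.45 to 0.048 for IUO over SAL, and *Ptprz1* from -0.066 to 0.14 for IUO over SAL. *Acan*, with 113 to 155 mean counts per group, is the member whose precision depth limits most. The causes were not tested.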
